A study of Bos taurus with 16 samples.

Results

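The genes described here encode subunits of the spliceosome and related RNA-binding proteins. They were taken by name: every Ensembl ID of the count table that the supplementary gene tables of the study pair with a symbol starting with SNRP, LSM and a digit, SF3A, SF3B, SRSF, HNRNP, PRPF, RBM or DDX. This gave 53 of the 27607 genes counted. They fall into 9 core snRNP genes (SNRPA1, SNRPB2, SNRPD2, SNRPE, SF3A1, SF3B5, LSM6, LSM7 and LSM8), 5 PRPF genes, 5 genes of SR proteins, 5 of hnRNPs, 13 RBM genes, 12 DDX genes and 4 other LSM genes.

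Introns are removed by the spliceosome, which is built from small nuclear ribonucleoproteins (snRNPs), each a small nuclear RNA held by a ring of Sm or LSm proteins together with proteins of its own. Which exons are joined depends on regulators that bind the pre-mRNA, among them the SR proteins, which mostly favour the use of an exon, and the hnRNPs, which often oppose it. DDX proteins are RNA helicases that rearrange RNA and RNA-protein complexes in splicing, ribosome biogenesis and translation, and PRPF proteins belong to the snRNPs or act on them.

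RNA-seq of polyadenylated RNA was done on 16 libraries, 1 from the right lobe of the liver and 1 from the semitendinosus muscle of each of 8 male Holstein calves. The study asked whether the way an embryo was produced still shows in the organs of the calf. Of the calves, 4 came from in vitro produced embryos (IVP, calves 3208, 3209, 5833 and 5841) and 4 from embryos obtained by multiple ovulation and embryo transfer (MOET, calves 3213, 3217, 3218 and 5932). All were reared alike and were 98 to 104 days old, except MOET calf 3213 at 144 days. The 4 IVP calves had 1 dam and 2 sires, and MOET calves 3217 and 3218 shared dam and sire with IVP calves 3208 and 3209. The other MOET calves had another dam and other sires, so embryo production and parentage are partly confounded.

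The deposited counts were adjusted for age by the authors and summed to between 22758137 and 24667728 per liver library and between 23677247 and 25626474 per muscle library. The members' counts of calf 3213 lay closer to the mean of the other MOET calves than counting noise allows, with a median distance of 0.0243 log2 units in liver and 0.0127 in muscle, against at least 0.0883 and 0.131 in the other calves. Means and SDs therefore cover 4 IVP and 3 MOET calves, and values by calf leave out 3213, while the fits kept all 8 calves with age as covariate. Levels are given as CPM, counts relative to the library size after TMM scaling within an organ, and a log2 fold change is IVP over MOET. In liver 5 of 14290 genes passed an FDR of 0.05, and in muscle 60 of 12854 did. Liver of IVP calf 5841 stood apart, with the members at a median distance of 0.486 log2 units from the rest of its group. The median of the core snRNP genes and the members passing an FDR of 0.05 are given for liver with and without it below. The named muscle fibre markers summed to at most 0.694 CPM in liver and the named hepatocyte markers to at most 36.8 CPM in muscle.

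In these tables a name was given to 53 of the 159 protein-coding genes with such symbols in the RefSeq annotation. Of the members, 36 were named by the expression table of the liver, 14 by that of the muscle, 1 (SNRPD2) by both, and 2 (RBM47 and DDX51) by a methylation table alone. The liver expression table stands here for genes selected on expression alone or on expression and methylation combined. The muscle one stands for genes selected on both combined. All were selected on these same calves. A member's direction in the organ that named it is therefore a description of how it was chosen, and only its value in the other organ was free of that choice.

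In liver, all 9 core snRNP genes had higher levels in IVP calves than in MOET calves. The median of their log2 fold changes was 0.80, against -0.004 over all genes tested. Their summed level was 190.3, 214.5, 208.9 and 351.7 CPM in IVP calves 3208, 3209, 5833 and 5841. It was 147.5, 168.4 and 153.6 CPM in MOET calves 3217, 3218 and 5932. Every IVP calf lay above every MOET calf, and calf 5841 lay far above the other IVP calves. The mean was 241.4 ± 74.3 CPM (SD, n = 4) in IVP calves and 156.5 ± 10.7 CPM (SD, n = 3) in MOET calves. Each of the 9 genes on its own also separated the groups with IVP higher, which 16.3% of all genes tested did in liver. None passed the edgeR quasi-likelihood test at an FDR of 0.05, which 0.035% of all genes did, and 7 had an unadjusted p under 0.05, which 14.8% of all genes had in this direction. The liver table had named all 9 from these same calves, so these shares are no test of them. These samples are bulk tissue, in which fewer cells of a type and less RNA per cell cannot be told apart.

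LSM7, LSM8 and LSM6 belong to the LSm ring that binds the end of the U6 RNA. LSM7 (ENSBTAG00000004521) was at 9.30, 12.8, 11.3 and 28.7 CPM in the liver of IVP calves 3208, 3209, 5833 and 5841 and at 6.11, 8.37 and 6.83 CPM in MOET calves 3217, 3218 and 5932. The groups did not overlap, and the lowest IVP calf lay close to the highest MOET calf (log2 fold change 1.06 ± 0.38 SE, FDR 0.132). LSM8 (ENSBTAG00000012649), the subunit that sets the nuclear U6 ring apart from the cytoplasmic one, was at 14.6, 15.6, 14.4 and 25.3 CPM in the same IVP calves and at 8.64, 10.9 and 9.81 CPM in the MOET calves. All 4 IVP calves were above the MOET calves by a wide margin (0.80 ± 0.23, FDR 0.125). LSM6 had a log2 fold change of 0.77 ± 0.28.

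The Sm and U2 proteins lay the same way. SNRPE (ENSBTAG00000050130), an Sm protein of the ring shared by the U1, U2, U4 and U5 snRNPs, was at 6.43, 7.07, 6.31 and 11.6 CPM in the liver of IVP calves 3208, 3209, 5833 and 5841 and at 4.49, 5.59 and 5.61 CPM in MOET calves 3217, 3218 and 5932. Its groups did not overlap, but the other IVP calves were not far above the highest MOET calf (log2 fold change 0.55 ± 0.25, FDR 0.172). SF3B5 (ENSBTAG00000009795), a small subunit of the SF3b complex of the U2 snRNP, was at 12.6, 18.0, 16.4 and 30.7 CPM in the IVP calves and at 9.10, 11.0 and 11.1 CPM in the MOET calves. Here too the order of the calves had 5841 highest and every MOET calf below every IVP calf (0.86 ± 0.29, FDR 0.127). SNRPA1, SNRPB2 and SNRPD2 had log2 fold changes of 0.81, 0.83 and 0.79. SF3A1, a large subunit of the SF3a complex, stood apart from the other 8 with 0.09 ± 0.10, a value that was below 0 with libraries scaled by their totals alone.

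**Figure D1:**
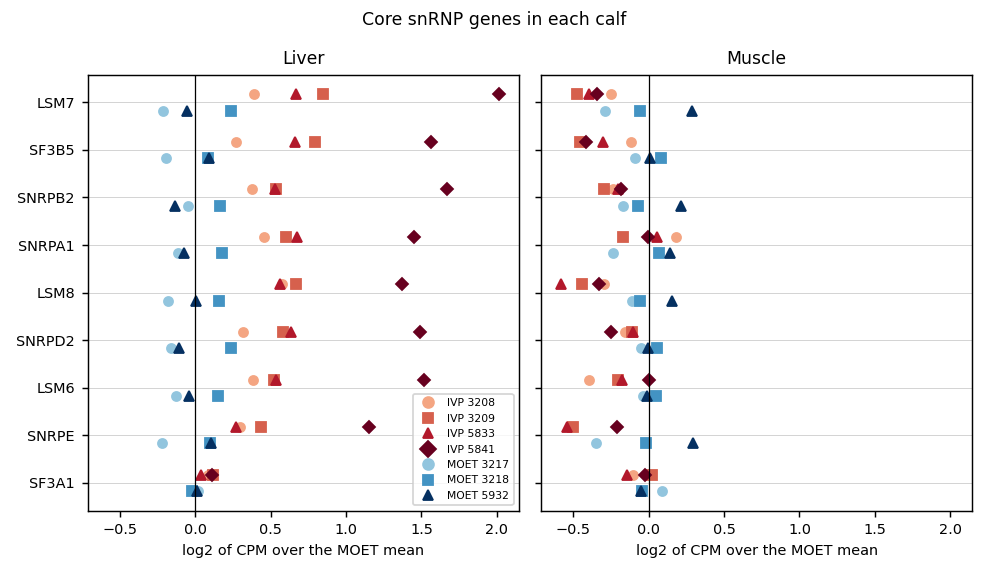
Each point is 1 calf's level of a core snRNP gene in liver (left) or muscle (right), as the log2 of its CPM over the mean of MOET calves 3217, 3218 and 5932, with IVP calves in red and MOET calves in blue. In liver the red points lie right of the blue ones in all 9 genes, with calf 5841 farthest right in 8 of them. In muscle most red points lie left of 0.

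In muscle the same genes had lower levels in IVP calves: 8 of the 9 core snRNP genes had a log2 fold change below 0, with a median of -0.23. Their summed level was 205.6, 202.5, 202.7 and 208.7 CPM in IVP calves 3208, 3209, 5833 and 5841 and 222.7, 236.4 and 242.9 CPM in MOET calves 3217, 3218 and 5932. The sums did not overlap, and the IVP calves lay close together (204.9 ± 2.94 CPM, SD, n = 4, against 234.0 ± 10.3 CPM, SD, n = 3). Single genes that separated the groups with IVP lower were 4 of 9, against 8.66% of all genes tested in muscle. None passed an FDR of 0.05, which 0.467% of all genes did, and 4 had an unadjusted p under 0.05, against 8.43% of all genes in this direction. Of the 8 core genes that only the liver table had named, 7 were lower in muscle, with a median of -0.27.

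LSM8 was at 11.7, 10.6, 9.57 and 11.4 CPM in the muscle of IVP calves 3208, 3209, 5833 and 5841 and at 13.3, 13.8 and 15.97 CPM in MOET calves 3217, 3218 and 5932. The groups did not overlap (log2 fold change -0.41 ± 0.12, FDR 0.112). SF3B5 was at 28.7, 22.6, 25.1 and 23.2 CPM in the IVP calves and at 29.1, 32.8 and 31.2 CPM in the MOET calves. It separated the groups only narrowly, since IVP calf 3208 was just below MOET calf 3217 (-0.31 ± 0.11, FDR 0.156).

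LSM7 was at 12.1, 10.4, 10.9 and 11.4 CPM in the muscle of IVP calves 3208, 3209, 5833 and 5841 and at 11.8, 13.8 and 17.5 CPM in MOET calves 3217, 3218 and 5932. Here IVP calf 3208 was above MOET calf 3217, so the groups overlapped (log2 fold change -0.36 ± 0.14, FDR 0.193). SNRPE was at 7.36, 7.46, 7.24 and 9.10 CPM in the IVP calves and at 8.29, 10.4 and 12.9 CPM in the MOET calves. The overlap came from calf 5841, the highest IVP calf for this gene in muscle as in liver (-0.44 ± 0.16, FDR 0.170). SNRPA1 was the exception to the direction, at 0.02 ± 0.13.

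**Figure D2:**
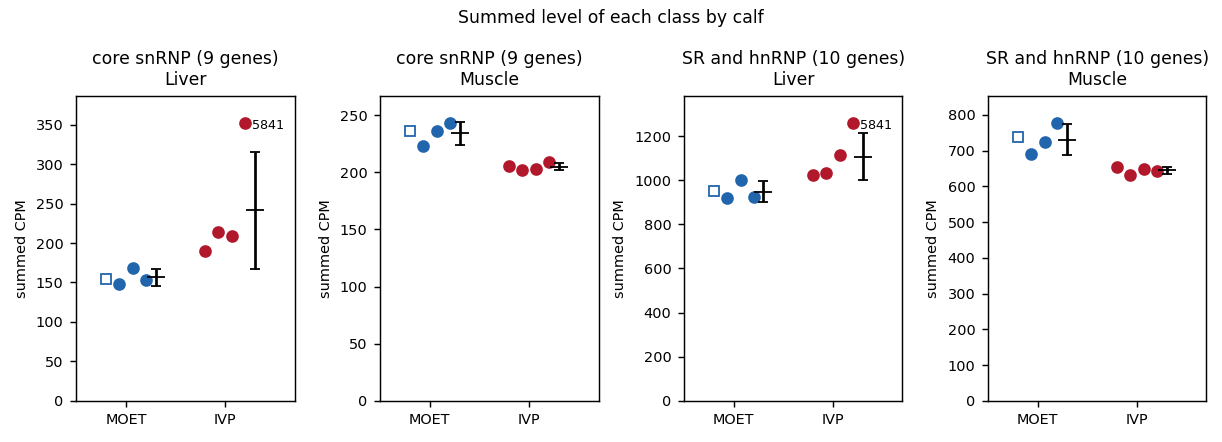
Summed CPM of the 9 core snRNP genes and of the 10 genes of SR proteins and hnRNPs in each calf, with MOET calves in blue and IVP calves in red, MOET calf 3213 as an open square and the mean ± SD (without calf 3213) as a black bar. The core sum of IVP calf 5841 in liver, 351.7 CPM, lies above the 190.3 to 214.5 CPM of the other IVP calves, and in muscle all IVP calves lie below the MOET calves in both classes.

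The splicing regulators had smaller log2 fold changes in liver than the core genes. The liver table had named all 9 core genes, but the muscle table alone had named 5 of the 10 regulators. The 2 classes were therefore not chosen alike, and the difference between them was not tested. Of the 10 genes of SR proteins and hnRNPs, 9 had a log2 fold change above 0 in liver with a median of 0.19, and 8 had one below 0 in muscle with a median of -0.18. In liver 2 had an unadjusted p under 0.05, SRSF11 and SRSF9, both with IVP higher, which 14.8% of all genes had. In muscle 4 did, 3 with IVP lower (8.43% of all genes) and 1 with IVP higher (11.4%). None passed an FDR of 0.05 in either organ by edgeR. Their summed level in liver was 1023, 1032, 1116 and 1258 CPM in IVP calves 3208, 3209, 5833 and 5841 and 918.8, 1001 and 922.0 CPM in MOET calves 3217, 3218 and 5932. In muscle it was 653.2, 632.2, 648.9 and 644.5 CPM in the IVP calves and 691.1, 724.1 and 776.7 CPM in the MOET calves. The sums did not overlap in either organ, but in liver IVP calf 3208 was near MOET calf 3218. With libraries scaled by their totals alone, the median of all genes tested in liver moved from -0.004 to -0.16 and that of the regulators to 0.03, with 6 of 10 above 0, while 8 of 9 core genes were above 0 with a median of 0.64.

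SRSF11, an SR-related protein that takes part in the choice of splice sites, was at 90.4, 88.3, 94.9 and 280.5 CPM in the liver of IVP calves 3208, 3209, 5833 and 5841 and at 56.6, 66.6 and 54.4 CPM in MOET calves 3217, 3218 and 5932. Of the 10 regulators it had the largest log2 fold change (1.15 ± 0.43, FDR 0.136), and calf 5841 was at 3.07 times the mean of the other IVP calves. SRSF9 was at 28.2, 31.5, 29.2 and 43.5 CPM in the IVP calves and at 21.8, 26.4 and 22.4 CPM in the MOET calves. Its groups were apart (0.47 ± 0.18, FDR 0.136), although its name came from the muscle table. In muscle their log2 fold changes were -0.19 ± 0.11 and -0.16 ± 0.11.

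HNRNPDL (ENSBTAG00000014804), an hnRNP that binds AU-rich RNA, was at 128.0, 124.5, 122.1 and 119.8 CPM in the muscle of IVP calves 3208, 3209, 5833 and 5841 and at 143.3, 155.8 and 166.4 CPM in MOET calves 3217, 3218 and 5932. The groups did not overlap (log2 fold change -0.32 ± 0.10, FDR 0.136). In liver it was at 133.5, 131.7, 160.1 and 151.6 CPM in the IVP calves and at 120.1, 131.3 and 120.5 CPM in the MOET calves, where IVP calf 3209 and MOET calf 3218 were almost level (0.21 ± 0.12). SRSF6, an SR protein, was at 107.5, 99.2, 105 and 99.0 CPM in muscle of the IVP calves and at 112.9, 120.3 and 134.7 CPM in the MOET calves. It separated the groups in muscle (-0.25 ± 0.10, FDR 0.220) and not in liver (0.04 ± 0.11, a value whose sign changed with the scaling).

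Not every regulator lay this way. HNRNPA3 was at 41.8, 36.7, 42.1 and 29.2 CPM in the liver of IVP calves 3208, 3209, 5833 and 5841 and at 46.5, 48.2 and 43.9 CPM in MOET calves 3217, 3218 and 5932. All IVP calves were lower in liver (log2 fold change -0.29 ± 0.15, FDR 0.204), and in muscle its log2 fold change was 0.16 ± 0.10. HNRNPH3 was at 0.24 ± 0.10 in muscle and HNRNPL at -0.27 ± 0.10.

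**Figure D3:**
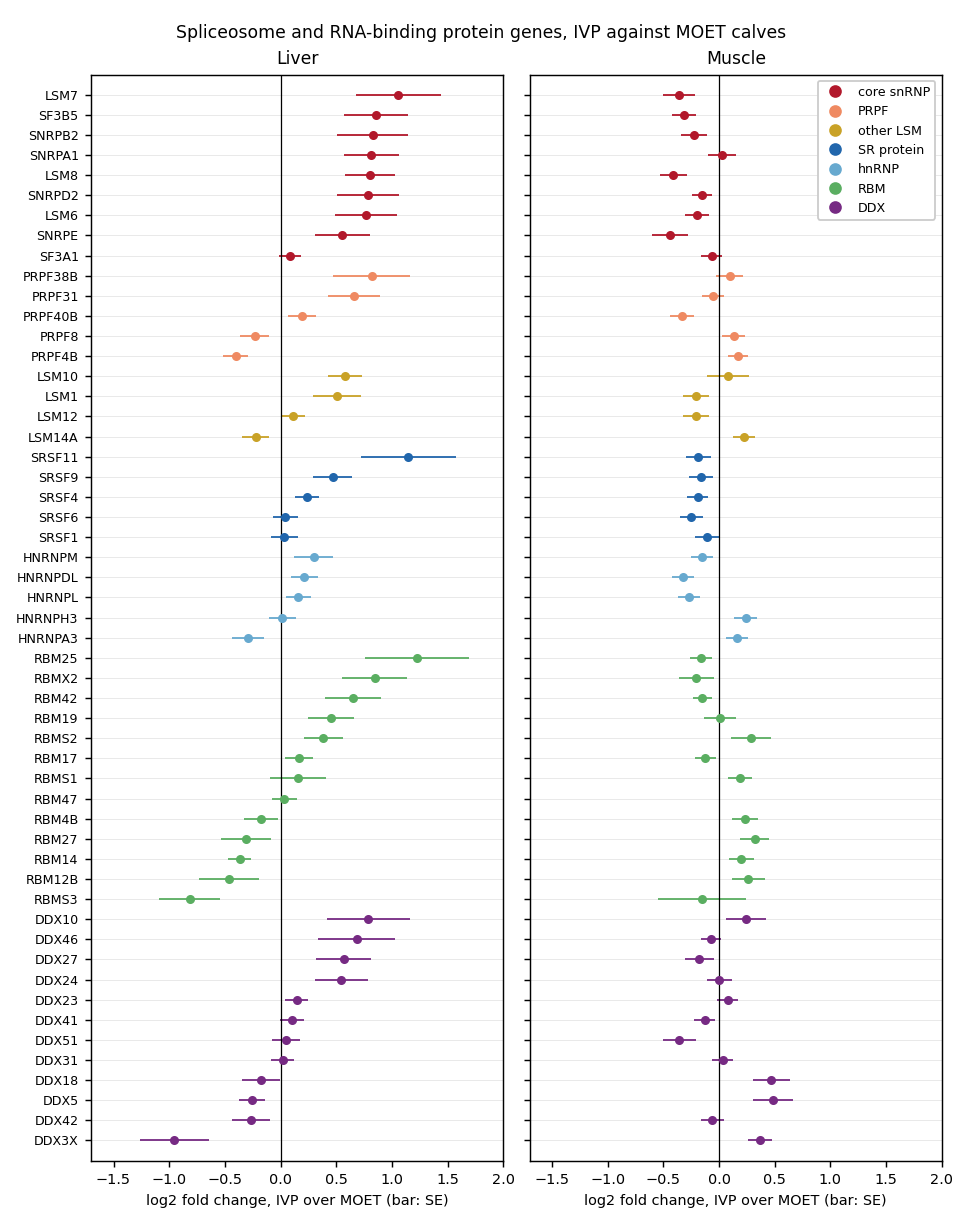
Log2 fold change of IVP over MOET calves for each member in liver (left) and muscle (right), coloured by class, with bars of 1 SE from the edgeR fit. The core snRNP genes lie right of 0 in liver and, except SNRPA1, left of 0 in muscle, whereas the PRPF, RBM and DDX genes lie on both sides in liver. RBM47 had too few counts in muscle to be fitted there.

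The PRPF genes split by gene. PRPF38B and PRPF31, the latter a protein of the U4/U6 part of the tri-snRNP, had log2 fold changes of 0.82 and 0.66 in liver, while PRPF8, the scaffold at the catalytic centre, had -0.23. Calf 5841 was at 114.8 CPM of PRPF38B, against 43.9 to 49.6 CPM in the other IVP calves. It was at 67.6 CPM of PRPF31, against 35.3 to 38.8 CPM. PRPF4B (ENSBTAG00000002086), a kinase that phosphorylates splicing factors, was at 40.1, 35.7, 39.3 and 33.6 CPM in the liver of IVP calves 3208, 3209, 5833 and 5841 and at 53.3, 46.8 and 48.1 CPM in MOET calves 3217, 3218 and 5932. All IVP calves were lower in liver (-0.40 ± 0.12, FDR 0.125). Muscle had 28.1, 28.7, 30.2 and 30.9 CPM in the IVP calves and 27.4, 25.5 and 25.8 CPM in the MOET calves, with all IVP calves higher (0.17 ± 0.09, FDR 0.331).

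PRPF40B (ENSBTAG00000016589), a homologue of a yeast factor of the U1 snRNP, was at 20.6, 26.2, 23.5 and 23.7 CPM in the muscle of IVP calves 3208, 3209, 5833 and 5841 and at 29.5, 27.3 and 32.3 CPM in MOET calves 3217, 3218 and 5932. The IVP calves were all lower (log2 fold change -0.33 ± 0.11, FDR 0.143). In liver the groups overlapped, with 22.2, 23.0, 23.8 and 27.2 CPM in the IVP calves and 19.9, 22.9 and 19.8 CPM in the MOET calves (0.20 ± 0.13).

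Among the LSM genes outside the nuclear U6 ring, LSM10, a protein of the U7 snRNP that processes histone mRNA, was at 22.4, 26.3, 26.6 and 33.8 CPM in the liver of IVP calves 3208, 3209, 5833 and 5841 and at 17.7, 18.0 and 18.4 CPM in MOET calves 3217, 3218 and 5932. The groups were well apart (log2 fold change 0.58 ± 0.15, FDR 0.125), and in muscle the value was 0.08 ± 0.19. LSM1, of the cytoplasmic LSm ring in mRNA decay, was at 8.68, 10.5, 8.81 and 13.8 CPM in liver of the IVP calves and at 5.94, 8.57 and 7.14 CPM in the MOET calves. IVP calf 3208 was only just above MOET calf 3218 (0.51 ± 0.21, FDR 0.156), and in muscle the value was -0.21 ± 0.11. LSM14A, a protein of P-bodies, ran the other way: in liver it was at 34.4, 32.8, 35.4 and 28.3 CPM in the IVP calves and at 37.9, 40.1 and 37.4 CPM in the MOET calves. In muscle it was at 35.0, 34.9, 30.7 and 30.2 CPM in the IVP calves and at 28.4, 27.9 and 28.0 CPM in the MOET calves. The groups did not overlap in either organ, with log2 fold changes of -0.22 ± 0.12 in liver and 0.22 ± 0.10 in muscle.

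The RBM genes, which share an RNA-binding domain and little else, had the widest range in liver, from -0.82 to 1.23. RBMS3, with only 9 to 26 counts per liver library, set the low end. Above 0 were 8 of 13 (6 of 13 with libraries scaled by their totals alone). RBM25, a splicing regulator shown here because of its values, was at 70.0, 79.6, 82.5 and 258 CPM in the liver of IVP calves 3208, 3209, 5833 and 5841 and at 49.6, 57.9 and 39.8 CPM in MOET calves 3217, 3218 and 5932. The groups were apart (log2 fold change 1.23 ± 0.47, FDR 0.137), and calf 5841 alone was at 3.33 times the mean of the other IVP calves. RBMX2, RBM42 and RBM19 had 0.84, 0.65 and 0.45, with calf 5841 highest in each.

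RBM14 (ENSBTAG00000001225), a component of paraspeckles, was at 38.1, 33.5, 36.1 and 34.9 CPM in the liver of IVP calves 3208, 3209, 5833 and 5841 and at 47.3, 46.4 and 44.4 CPM in MOET calves 3217, 3218 and 5932. The groups were far apart with IVP lower (log2 fold change -0.37 ± 0.10, FDR 0.125). In muscle it was at 16.6, 14.1, 16.7 and 16.3 CPM in the IVP calves and at 13.4, 12.8 and 15.3 CPM in the MOET calves, which overlapped through calf 3209 (0.20 ± 0.11). RBM27 was at 6.51, 5.03, 5.31 and 8.85 CPM in liver of the IVP calves and at 8.60, 6.53 and 8.40 CPM in the MOET calves, so the groups overlapped (-0.31 ± 0.22). Muscle had 7.15, 6.77, 6.73 and 6.60 CPM in the IVP calves and 6.08, 4.91 and 5.42 CPM in the MOET calves, all IVP calves being higher (0.32 ± 0.13, FDR 0.201).

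Among the DDX helicases 8 of 12 were above 0 in liver (4 of 12 with library totals alone) and 6 of 12 in muscle (7 of 12). DDX3X (ENSBTAG00000035907), a helicase of translation initiation, was at 63.7, 48.4, 51.5 and 21.3 CPM in the liver of IVP calves 3208, 3209, 5833 and 5841 and at 104, 74.5 and 96.4 CPM in MOET calves 3217, 3218 and 5932. All IVP calves were lower, calf 5841 most of all (log2 fold change -0.95 ± 0.31, FDR 0.127). Muscle had 32.5, 28.0, 27.8 and 33.3 CPM in the IVP calves and 23.7, 21.6 and 25.2 CPM in the MOET calves. Here all IVP calves were higher (0.37 ± 0.11, FDR 0.120). DDX5, a helicase of splicing and transcription, and DDX18, of ribosome biogenesis, had the same pair of signs, with -0.25 and -0.18 in liver and 0.48 and 0.47 in muscle. DDX46, of the U2 snRNP, had 0.68 in liver and -0.07 in muscle, and DDX42, a helicase linked to the same snRNP, had -0.27 and -0.06. In liver calf 5841 was at 110.7 CPM of DDX46, against 42.8 to 46.0 CPM in the other IVP calves. It was at 16.5 CPM of DDX42, against 25.3 to 27.4 CPM. Reads of DDX3X and its copy on the Y chromosome, and of RBM4B and RBM4, could be shared or lost in counting.

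Over all members, 40 of 53 had a log2 fold change above 0 in liver (49.7% of all genes tested) and 21 of 52 in muscle (52.3%), with medians of 0.20 and -0.09. In liver 22 members had an unadjusted p under 0.05 (18 with IVP higher and 4 with IVP lower), against 29.8% of all genes (14.8% and 15.0% by direction). In muscle 15 did (6 and 9), against 19.8% (11.4% and 8.43%). None passed an FDR of 0.05 by edgeR in either organ. In liver the groups did not overlap in 28 members with IVP higher (16.3% of all genes) and in 9 with IVP lower (16.7%), and in muscle in 8 (10.4%) and 13 (8.66%). By DESeq2 with age, 9 members passed in liver, where 11.0% of all genes did, and 1 in muscle, where 3.62% did. Without the age term 18 and 7 passed by edgeR (21.0% and 9.13% of all genes) and 28 and 9 by DESeq2 (32.6% and 12.6%). These fits kept the 144-day MOET calf, whose counts lie closer to the mean of the other MOET calves than counting noise allows. With neither that calf nor the age term, 0 members passed by edgeR in either organ. Of all genes, 5 of 14416 passed there in liver and 83 of 13098 in muscle. That setting also had fewer calves, and why the counts changed was not tested. All members but RBM47 and DDX51 were named by the expression tables of these calves, so none of these shares is a test of the members. With libraries scaled by their totals alone, the number above 0 in liver was 29 of 53. Of the 14 members named by the muscle table alone, 12 were above 0 in liver (7 with library totals alone), and of the 37 expression-table members of the liver, 16 were above 0 in muscle.

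The liver of IVP calf 5841 differed from that of the other IVP calves. Its level was above 1.5 times the mean of the other 3 IVP calves in 21 of 53 members, against 16.3% of all genes tested, and in 8 of 9 core snRNP genes but 1 of 10 regulators. Of the core genes this ratio was 2.59 in LSM7, 2.28 in SNRPB2 and 1.02 in SF3A1. Without this calf, all 9 core genes remained above 0 with a median log2 fold change of 0.52 in place of 0.80. In that fit 14 members passed an FDR of 0.05, against 8.41% of all genes: 12 rose in IVP calves, against 4.32% of all genes (LSM6, LSM7, LSM8, SF3B5, SNRPA1, SNRPB2, SNRPD2, SRSF11, PRPF31, LSM10, RBM25 and RBMX2) and 2 fell, against 4.08% (DDX3X and RBM14). All 14 were among the 37 members that the liver expression table had named from these same calves, so the shares are no test of them. Without MOET calf 3213 the youngest calf was IVP calf 5841, at 98 days, and the oldest was at 104 days. With the age term kept, the number of members that passed was then 20, against 15.2% of all genes. With the same 7 calves and no age term it was 0 (0.0347% of all genes), with 25 members at an unadjusted p under 0.05. Without any other calf it was 0. Among the 4 calves with the same dam and sire, 3208 and 3209 against 3217 and 3218, all 9 core genes were above 0 in liver with a median of 0.43 and 8 of 9 were below 0 in muscle with a median of -0.19.

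**Figure D4:**
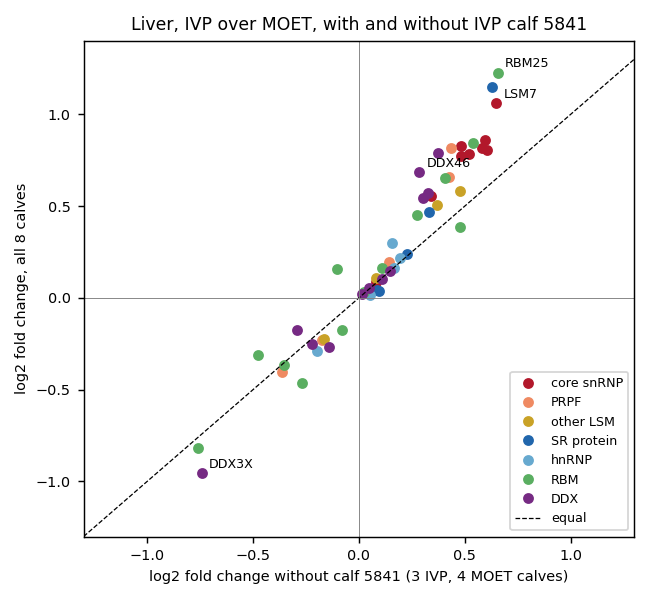
Liver log2 fold change of each member with all 8 calves (vertical axis) and without IVP calf 5841 (horizontal axis), coloured by class, with a dashed line where both are equal. RBM25, LSM7 and the other core snRNP genes except SF3A1 lie above the line, and the hnRNP genes lie near it.

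Whether liver and muscle differed in this respect was tested in 1 fit over the 16 libraries. The difference contains the effect in the organ whose table named a member, and all members but RBM47 and DDX51 were named by such a table, so the counts and medians here describe how the members were chosen as well as how they differed, and the shares of all genes are no test of the members. All 9 core snRNP genes had a lower difference in muscle than in liver, with a median of -1.03 (log2, muscle minus liver), and the 10 regulators had a median of -0.46. Of all 53 members 10 passed an FDR of 0.05 by edgeR, against 8.99% of all genes: 4 core snRNP genes (LSM7, LSM8, SF3B5 and SNRPE), 1 hnRNP (HNRNPDL) and PRPF40B with a lower difference in muscle (6, against 4.25% of all genes), and DDX3X, PRPF4B, RBM14 and RBM47 with a higher one (4, against 4.74%). The core genes had differences of -1.45 ± 0.42 SE in LSM7, -1.24 ± 0.26 in LSM8, -1.20 ± 0.31 in SF3B5 and -1.03 ± 0.30 in SNRPE. HNRNPDL and PRPF40B had -0.57 ± 0.16 and -0.56 ± 0.17. DDX3X had 1.29 ± 0.36, and PRPF4B and RBM14 had 0.54 ± 0.14 each.

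RBM47 (ENSBTAG00000002356), a cofactor of RNA editing, is a case apart. Its muscle libraries held 7, 11, 15 and 9 counts in IVP calves 3208, 3209, 5833 and 5841 and 0, 6 and 1 in MOET calves 3217, 3218 and 5932. In liver it was at 32.0, 27.3, 27.1 and 29.9 CPM in the IVP calves and at 29.4, 27.8 and 27.9 CPM in the MOET calves, which overlapped. The fitted difference of 2.04 ± 0.59 rests on a handful of reads in muscle. HNRNPDL, LSM7 and RBM47 each overlap another protein-coding gene in the RefSeq annotation, and the libraries were not stranded.

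Each calf gave a library of either organ, and with a block for the calf 4 members passed, against 4.68% of all genes: LSM6, LSM8 and SNRPE with a lower difference in muscle (1.81% of all genes) and DDX3X with a higher one (2.87%). The other 7 of the 10 did not pass there. Leaving out a calf moved the count as well: it was 0 without calf 3209, 3217, 3218, 5833 or 5932, 22 without 3208 (16.4% of all genes) or without 3213 (14.1%) and 19 without 5841 (10.5%). With no age term it was 31 (26.6% of all genes), by DESeq2 25 (17.3%) and with no filter on low counts 5 (5.17%). With RLE scaling it was 15 (9.77%), of which 11 were lower in muscle (5.32%) and 4 higher (4.44%). Without both calf 3213 and the age term it was 19 (12.2%), and 6 (7.49%) with the block for the calf added.

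**Figure D5:**
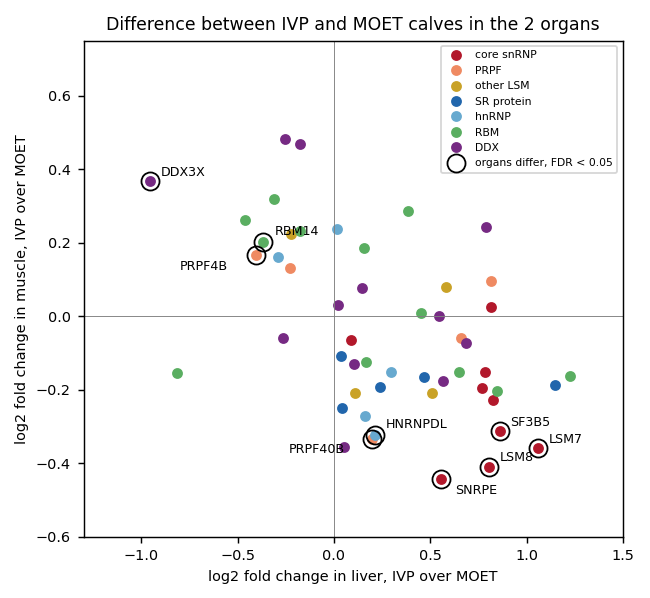
Log2 fold change of IVP over MOET calves in liver (horizontal axis) and in muscle (vertical axis) for the 52 members fitted in both, coloured by class. Circles mark members whose difference between the organs passed an FDR of 0.05, with LSM7, LSM8, SF3B5 and SNRPE at the lower right and DDX3X at the upper left.

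Between the organs themselves, over both groups of calves, 43 of 53 members passed an FDR of 0.05, against 82.8% of all genes. The core snRNP genes were the only class of those named above with all members higher per library in muscle, with a median log2 difference (muscle minus liver) of 0.96, and 7 of the 9 passed, against 38.9% of all genes in this direction. SF3B5 was at 12.3 ± 5.89 CPM (SD, n = 7, without calf 3213) in liver and 34.8 ± 5.32 CPM (SD, n = 7) in muscle on a scale common to both organs, and LSM6 was at 17.3 ± 8.05 and 45.4 ± 4.91 CPM. The size depended on the group: within MOET calves all 9 were higher in muscle with a median of 1.65, and within IVP calves 6 were, with a median of 0.31. The SR proteins had 4 of 5 members lower in muscle.

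Other spliceosome genes of lists made from textbook complexes could be named in 30 of 123 cases beyond the members, again through the same tables. In liver 23 were above 0 (49.7% of all genes tested) with a median of 0.39. In muscle 7 were (52.3%), with a median of -0.13. By edgeR 0 passed in either organ, against 0.035% of all genes in liver and 0.467% in muscle. Since these genes were named by tables of selected genes, the shares are no test of them. In the difference between the organs 11 passed (8.99% of all genes), with the same limit from how they were named. Lower in muscle were SNRNP70 (-1.12) and LUC7L (-0.86) of the U1 snRNP, U2AF1 (-1.20), which reads the 3′ splice site, PPIH (-1.27) and SNU13 (-0.79) of the tri-snRNP, CWC15 (-0.73) of the PRP19 complex and ZCRB1 (-1.46) of the minor spliceosome. Higher in muscle were the helicases DHX8 (0.72) and AQR (0.63), the SR protein kinase SRPK1 (0.94) and GEMIN5 (1.16), which loads Sm proteins onto the small nuclear RNAs.

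Markers of cell types could be named only through the same tables of selected genes, so markers that did not differ may be missing. Whether the sums of the named ones lay apart is therefore no test of the makeup of the tissue. In liver the hepatocyte markers APOA1 and TTR, 2 of 5 listed, summed to 6353 to 9021 CPM in IVP calves and 3984 to 4845 CPM in MOET calves. The macrophage markers C1QA and C1QB, 2 of 5, summed to 960.2 to 1817 CPM and 691.8 to 888.1 CPM. The fibroblast and stellate cell markers COL1A1, COL3A1 and DCN, 3 of 4, summed to 460.2 to 611.2 CPM in IVP and 724.2 to 764.4 CPM in MOET calves. These sums did not overlap in liver, although DCN on its own had a log2 fold change of -0.001 ± 0.14 there. The endothelial markers VWF and CDH5, 2 of 4, summed to 76.9 to 95.1 CPM in IVP calves and 99.7 to 125.0 CPM in MOET calves in liver. In muscle the fibroblast markers summed to 686.2 to 1004 CPM in IVP and 1142 to 1431 CPM in MOET calves, again apart. The endothelial markers in muscle were apart in the other direction, at 85.2 to 139.2 CPM in IVP and 71.8 to 79.1 CPM in MOET calves (CDH5 log2 fold change 0.72 ± 0.17, FDR 0.078 by edgeR). The hepatocyte markers in muscle were at 3.17 to 36.8 CPM in IVP and 0.97 to 2.47 CPM in MOET calves, which did not overlap either, and the macrophage markers at 11.0 to 32.1 and 15.0 to 21.1 CPM, which did. In muscle the fibre markers ACTA1, MYH2, MYH7 and TNNT3, 4 of 7, summed to 105954 to 139240 CPM in IVP calves. In MOET calves they summed to 122032 to 140154 CPM, so the groups overlapped. Their log2 fold changes in muscle were -0.29, 0.79, 1.65 and -0.37. The part of the makeup of the tissue in the results above was not tested.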

How the data were processed

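The authors filtered read pairs of 16 unstranded libraries, aligned them with STAR to bosTau9, counted them per Ensembl gene with HTSeq and adjusted them for age with sva. The deposited values are whole numbers used here as estimated counts, since they are no longer reads as counted, and the model of the adjustment is not given in the sources used here. The design had assumed counts, and rounding changed 0 values. Every column of values was matched to a sample, with 0 others. The supplementary tables pair 4181 of 27607 IDs with a name. Members and lists were chosen with earlier results of these data known. In each organ genes passing filterByExpr (minimum count 10, minimum total 15) were scaled by TMM and tested with the quasi-likelihood test of edgeR 4.0.16 in R 4.3.3, with age as covariate and Benjamini-Hochberg adjustment at 0.05 over all genes tested. The difference between the organs was tested as an interaction over 16 libraries. DESeq2 1.42.0 was an alternative, as were other scalings, filters, no age term and leaving out calves. The fits were tested on simulated data. Replicates are separate calves.

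Values by calf are given for members that passed the main edgeR fit in liver, in muscle or in the difference, not for those passing an alternative alone. In each class they are also given for the member with the lowest p in liver, in muscle and in the difference. RBM25 was added after its values were seen, as were the IVP liver levels of DDX42, DDX46, PRPF31 and PRPF38B. Liver and muscle libraries are paired through the animal. Their residuals from the group means were correlated within each calf over the genes above a cutoff on the mean count. The values ran from -0.124 to 0.226, with 0.0785 as the median and 3 of 8 calves exceeding 0.1. RefSeq names were used for families and neighbours of another assembly, with no coordinates. No sequences are printed. The methylation data were not used here.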

Additional observations from a re-analysis of the deposited data

Results flagged for a closer look

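In 8 of 52 groups of 4 IVP calves tested, 1 calf lay farther from the others than Dixon's 95% limit for the gap relative to the group's range. Chance gives about 1 in 20 for a single group. The groups share the same 4 calves, and the core snRNP and SR protein sums contain flagged genes, so this rate is no test of the count. In liver 6 of the 8 were calf 5841, with LSM8 at 25.3 CPM, SNRPE at 11.6 CPM and SRSF11 at 280.5 CPM. Its summed levels were 351.7 CPM in the core snRNP genes, 685.1 CPM in the SR proteins and 647.9 CPM in the RBM genes. In muscle calf 5841 was high for SNRPE at 9.10 CPM, and calf 3209 was low for RBM14 at 14.1 CPM. The difference between IVP and MOET calves differed between the organs in 10 members by the interaction test, which 8.99% of all genes did. They were (log2, muscle minus liver) DDX3X 1.29, HNRNPDL -0.57, LSM7 -1.45, LSM8 -1.24, PRPF40B -0.56, PRPF4B 0.54, RBM14 0.54, RBM47 2.04, SF3B5 -1.20 and SNRPE -1.03. The members were named from these same calves, so the share is no test of them. With a block for the calf only DDX3X, LSM8 and SNRPE of these passed. Without calf 3209, 3217, 3218, 5833 or 5932 no member passed. The value of RBM47 rests on few reads in muscle.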

How the results depend on the processing

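The number of members past an FDR of 0.05 depended on the age term, the tool and single calves. In liver it was 0 (0.035% of all genes). It was 18 with no age term (21.0%), 9 by DESeq2 with age (11.0%) and 28 by DESeq2 without age (32.6%). Leaving out each calf gave 0 to 20 (15.2% for the 20, without calf 3213). Without both the 144-day calf and the age term it was 0 (0.0347%). In muscle it was 0 (0.467%), and 7 (9.13%), 1 (3.62%), 9 (12.6%), 0 to 0 and 0 in the same order. For the difference between the organs it was 10 (8.99% of all genes). It was 4 with the calf as replicate block (4.68%), 5 with no filter on low counts (5.17%) and 31 with no age term (26.6%). By DESeq2 it was 25 (17.3%), and with RLE scaling 15 (9.77%). Without the 144-day calf and the age term it was 19 (12.2%). With the block added to that, a setting chosen after seeing the data, it was 6 (7.49%). Leaving out each calf gave 0 to 22 (for the 22, 16.4% without 3208 and 14.1% without 3213). The members were named from these same calves, so these shares are no test of them. With all calves kept, the age term rests mostly on the 144-day calf, whose deposited counts are close to its group's mean. Without it, the youngest calf is IVP calf 5841. Among calves of the shared dam and sire, the liver median was 0.43 for the core snRNP genes and 0.077 for the regulators, and with library totals only it was 0.030 for the regulators. Leaving out each calf, the core median lay between 0.52 and 0.94 in liver, -0.31 and -0.20 in muscle and -1.12 and -0.77 in the difference, and that of the regulators between 0.14 and 0.22, -0.21 and -0.15, and -0.51 and -0.39. Over all members, the sign turned under at least 1 alternative in 11 of 53 in liver (11 with library totals only, 6 with upper quartile scaling), in 8 of 52 in muscle and in 3 of 53 in the difference. Of the 18 members given by calf under the rule, it turned in 3: LSM10 in muscle (-0.058 to 0.24 leaving out each calf, below 0 without 3208 or 5932), RBM47 in liver (-0.0278 with upper quartile scaling, -0.12 with library totals and -0.014 to 0.070 leaving out each calf, below 0 without 3208) and SRSF6 in liver (-0.016 and -0.11 in the same 2 scalings). With the block for the calf, 42 members in place of 43 differed between the organs themselves. The causes were not tested. Depth limits the genes with few counts, as RBM47 in muscle.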
